A study of Mus musculus with 20 samples.

Results

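The 50 genes described here encode the protein-folding machinery of the cell, comprising chaperones, the chaperonin TRiC, prefoldin and cyclophilins, and they were taken by name from 25239 genes counted in the preoptic area (POA) of 20 male mice. All 50 were found and all 50 passed the filter on low counts in every comparison. They were read in 8 classes by role: 7 heat-inducible chaperones, 7 other cytosolic heat shock proteins, 3 mitochondrial chaperones, 8 chaperones of the endoplasmic reticulum (ER), 8 TRiC subunits, 6 prefoldin subunits, 6 cochaperones of Hsp90 and Hsp70, and 5 cyclophilins. The dnFGFR mice were homozygous for a transgene that encodes a truncated FGF receptor 1 without its tyrosine kinase domain and that is driven by a rat GnRH promoter, so that it acts in GnRH neurons, which are few among the cells of a POA sample. Control mice came from a matched background. Each male was paired at postnatal day (PND) 20 with 1 partner, either of the same sex (SS) or of the opposite sex (OS), and tissue was collected at PND 320; OS pairs bred and raised pups, so sexual experience and parenting belong to OS housing. Both housings were studied in both genotypes, which gave 4 groups of 5 mice, called Control or dnFGFR and SS or OS below. As the samples were bulk tissue, fewer cells of a type and less RNA per cell cannot be told apart.

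Chaperones bind proteins that are not yet folded or have lost their fold. Hsp70 proteins take up short exposed stretches with the help of J-domain proteins, Hsp90 finishes client proteins such as steroid receptors and kinases, TRiC encloses actin and tubulin in a ring, prefoldin delivers those chains to TRiC, and cyclophilins turn the bond before proline. In the ER, the Hsp70 protein BiP, the Hsp90 protein GRP94, the lectins calnexin and calreticulin and the protein disulfide isomerases fold secreted and membrane proteins, and their genes are induced together when unfolded proteins accumulate. Neurons that secrete peptides, as many in the hypothalamus do, depend on this ER set.

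The libraries held 32353578 to 39871353 counted reads, and levels are given below as counts scaled to library size (CPM) after TMM scaling. Neuronal, glial and preoptic markers were detected in every group, and so were those of striatal medium spiny neurons, summing to 1435 to 2887 CPM. The library of dnFGFR OS replicate 5 stood apart, with 18416 genes detected against 19101 to 19659 in the other mice. Summed markers of choroid plexus and ependyma differed widely between mice within each group, from 42.3 to 2150 CPM. Sacrifice dates of control and dnFGFR mice did not overlap, so date and genotype cannot be told apart. Date and housing were also partly confounded. Control SS replicates 1, 4 and 5 and dnFGFR SS replicates 2, 3 and 4 came from dates with no OS mouse. The date of dnFGFR OS replicate 4 held no SS mouse. The p-values below measure the spread between these single mice.

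Together the 50 genes took 0.923% of the counted reads, with 0.849% in the lowest mouse and 1.06% in the highest. Per kilobase of transcript, the levels were led by constitutive genes. Hsp90ab1, the constitutive cytosolic Hsp90, stood at 532 CPM per kilobase, Ppia, cyclophilin A, at 531 and Hspa8, the constitutive Hsp70, at 444. Hsp90aa1, the inducible Hsp90, followed at 323. The TRiC subunits, which form a ring of fixed composition, lay between 34.2 CPM per kilobase for Cct4 and 86.7 for Tcp1. At the bottom were the stress-induced Hsp70 genes Hspa1a and Hspa1b, at 5.03 and 4.41 CPM per kilobase, and Ppic, cyclophilin C, at 0.543. The spread between mice of a group was small: the median standard deviation (SD) was 0.13 on the log2 scale over the 50 genes and 0.18 over all genes that passed the filter. It was lowest in TRiC and the mitochondrial chaperones, with a class median of 0.09 each, and higher in prefoldin, with 0.22. Hspb1, Hspa1a, Hspa1b and Ppic varied most, with SDs of 0.36, 0.31, 0.37 and 0.41.

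**Figure D1:**
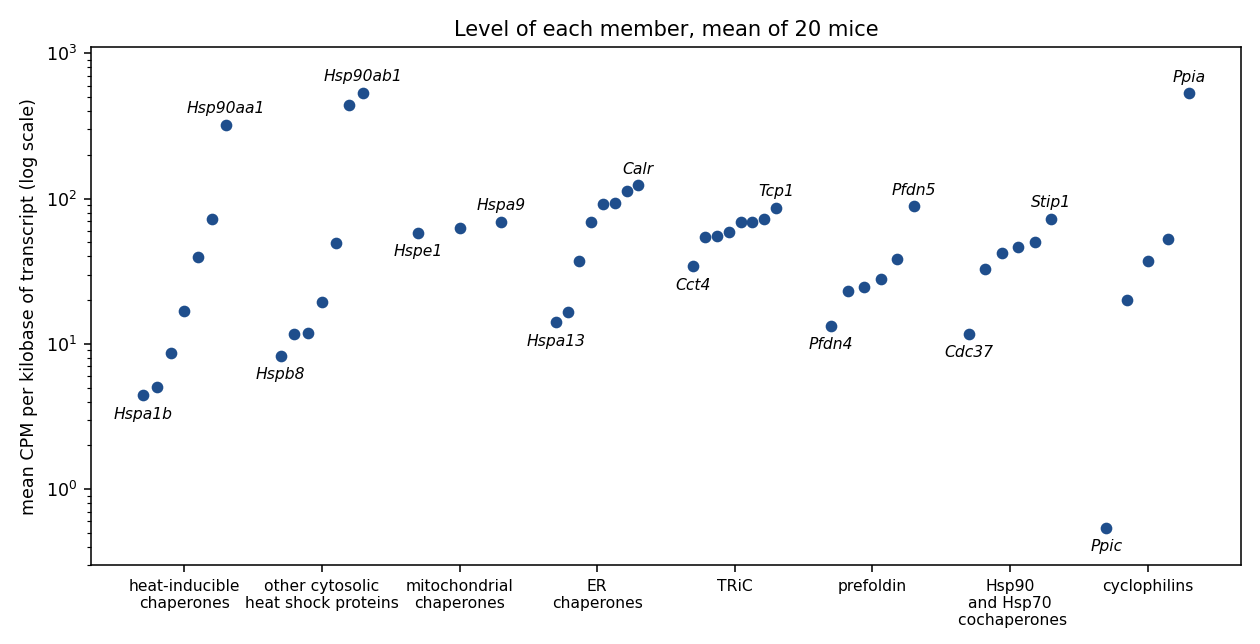
Mean CPM per kilobase of transcript over the 20 mice on a log axis, 1 point for each of the 50 genes, grouped by class, with the lowest and highest gene of each class named. Hsp90ab1, Ppia and Hspa8 lie above 400, the TRiC subunits lie close together, and Ppic lies below 1.

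The first question of the design was whether housing with a female rather than a male changed gene levels, within each genotype. No gene of the 50 passed an adjusted p of 0.1 in either genotype by edgeR's quasi-likelihood test with Benjamini-Hochberg adjustment. In control mice the same threshold was passed by 21 of 17004 genes (0.124%), and in dnFGFR mice by 0 of 16944 (0.00%), with 1138 genes at an unadjusted p under 0.05 in the latter and 5 past the threshold by DESeq2. In control mice, 43 of the 50 genes had a fold change above 0, as had 50.9% of all genes, and their median log2 fold change was 0.06 beside 0.0021 over all genes. An unadjusted p under 0.05 was reached by 7 genes, all higher in OS mice (3.66% of all genes were higher at that level and 3.54% lower): Hspa5, Ptges3, Pdia6, Hsp90b1, Dnajb1, Calr and Hspa2. In dnFGFR mice, 33 of the 50 were above 0 (50.9% of all genes), with a median of 0.04 beside 0.0037. The same level was reached by 6 genes, again all higher in OS mice (2.95% of all genes were higher and 3.77% lower): Ptges3, Hsp90b1, Tcp1, Cct6a, Hspa5 and Pdia3. These counts depended on single mice. The 7 in control mice became 4 without Control SS replicate 5, Control OS replicate 2 or Control OS replicate 4. The 6 in dnFGFR mice became 3 without dnFGFR SS replicate 2 or 5, 12 without dnFGFR OS replicate 2 and 10 without dnFGFR OS replicate 4. Ptges3, Hspa5 and Hsp90b1 are in both lists, which come from different mice. Ptges3 and Hspa5 are also in the gene list that the study published from dnFGFR mice, so their overlap is not independent evidence. The 50 genes were chosen with earlier results of these data known, and the share of all genes in both lists was not counted.

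**Figure D2:**
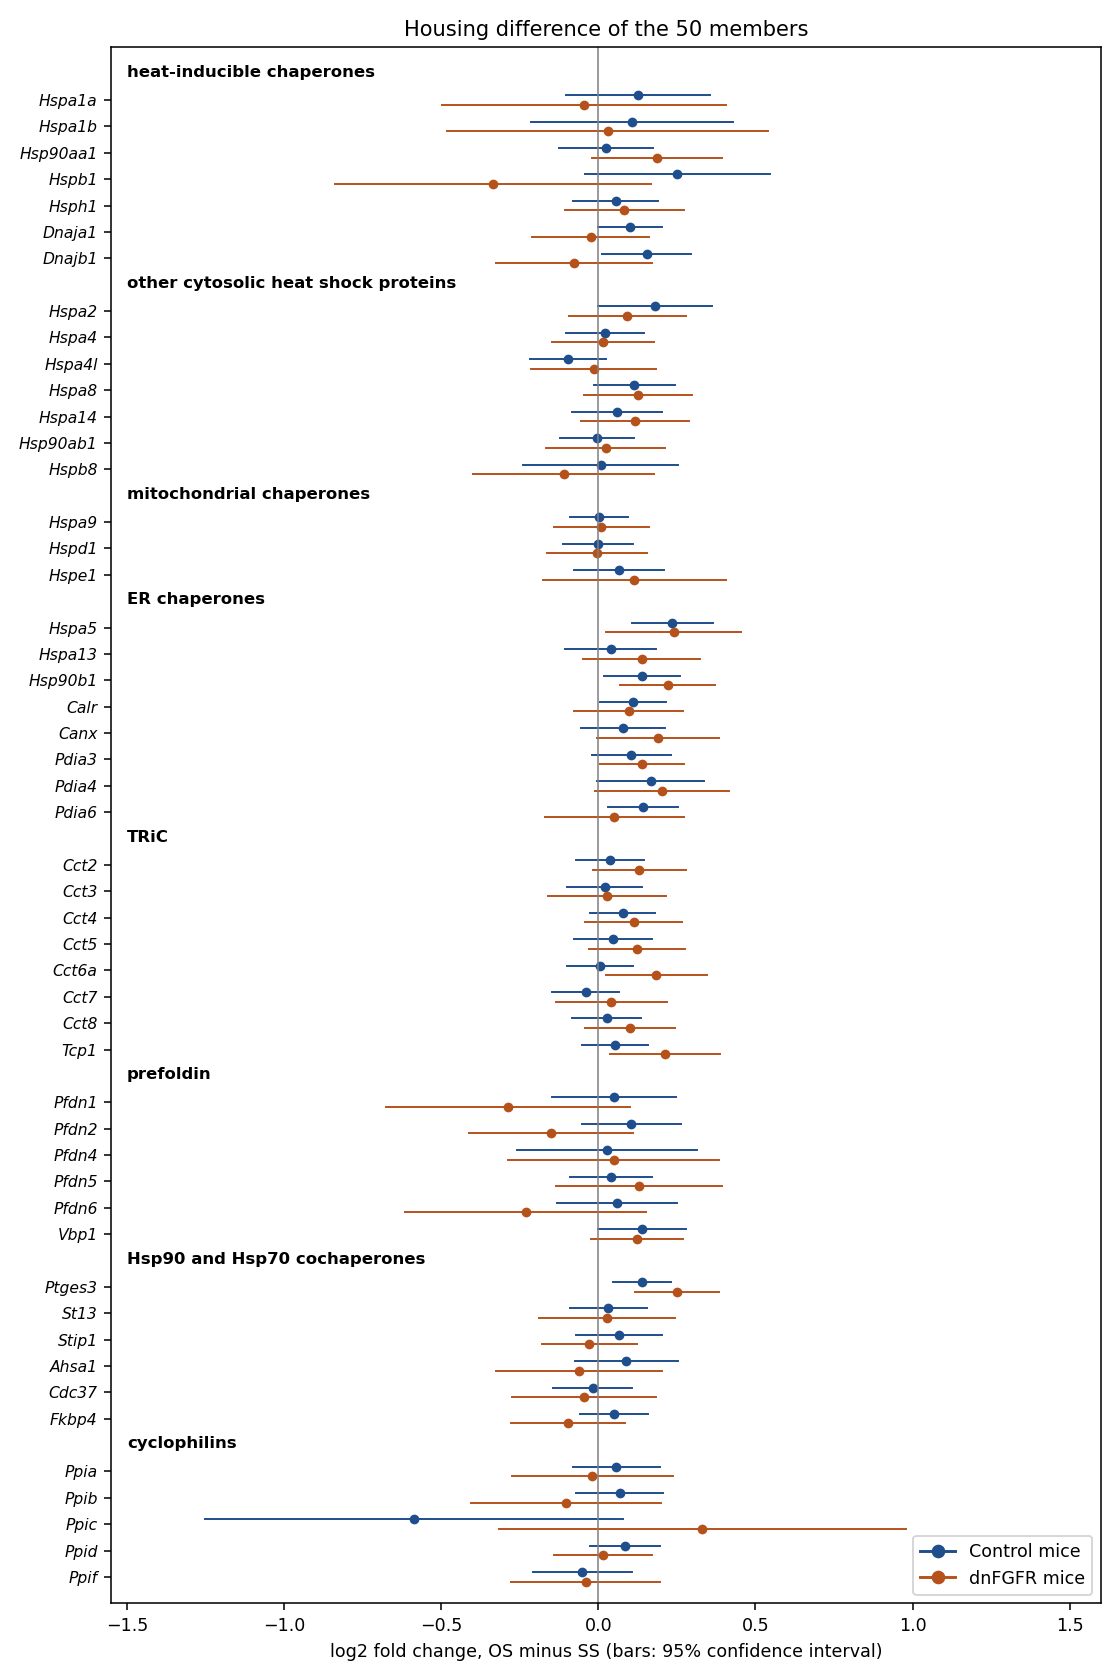
Log2 fold change of OS over SS mice for each of the 50 genes, by class, in control mice (blue) and dnFGFR mice (orange), with 95% confidence intervals from the edgeR fit. All 8 ER chaperones lie above 0 in both genotypes, the heat-inducible and prefoldin genes lie above 0 in control mice and on both sides of 0 in dnFGFR mice, and the intervals of Ptges3, Hspa5 and Hsp90b1 exclude 0 in both.

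The ER chaperones were the class in which every gene was higher in OS mice of both genotypes. All 8 had a fold change above 0 in control mice, with a class median of 0.12, and all 8 in dnFGFR mice, with a median of 0.16, whereas each of the other 7 classes had genes in both directions in at least 1 genotype. With a trend on GC content and transcript length removed and a replicate block, the class medians were 0.097 in control and 0.094 in dnFGFR mice. Median GC content was 47.08% in this class, 46.84% in the mitochondrial chaperones and 47.39% in TRiC. The other classes lay between 49.34% for prefoldin and 52.7% for the heat-inducible chaperones. In dnFGFR mice the housing difference fell with GC content across genes, as given below for Ptges3. None of the 8 ER chaperones passed the adjusted threshold in either genotype by edgeR. DESeq2 called Hspa5 in control mice (adjusted p = 0.0429). So did edgeR with a GC and length trend removed and a replicate block (adjusted p = 0.0943), though the replicate numbers do not pair the mice. By edgeR it was not called with only the trend removed (adjusted p = 0.194), only the replicate block (0.135) or all 4 groups in 1 fit (0.9995). Nor was it called within sacrifice dates that held both housings.

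The promoters of this class carry a sequence feature not found in the other classes. The ER stress element, read as CCAAT and CCACG with 9 bases of any kind between them and searched on both strands in the 250 bases before the RefSeq start site, binds the factors that induce these genes in the unfolded protein response. It was present in 5 of the 7 ER chaperones with a promoter in the table, in 0 of the other 33 matched members, and in 0.113% of all 32851 promoters (0.13% of 27025 genes). Its first block, CCAAT, is common by itself and was in 33.8% of all promoters. The promoters of Hspa5 and Hsp90b1, which had the smallest p-values of the class in control and in dnFGFR mice respectively, are shown in full, with the element in capitals, followed by the stretch around the element in the other 3 genes. The build is GRCm38.p6 (RefSeq), and each line reads 5′ to 3′ on the strand of the gene.
Hspa5, chr2:34771840-34772089, + strand: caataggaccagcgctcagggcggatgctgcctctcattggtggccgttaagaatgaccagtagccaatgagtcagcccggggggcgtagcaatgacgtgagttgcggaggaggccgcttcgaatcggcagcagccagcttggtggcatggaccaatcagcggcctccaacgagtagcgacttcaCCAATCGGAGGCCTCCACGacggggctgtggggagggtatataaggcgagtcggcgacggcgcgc
Hsp90b1, chr10:86705445-86705694, - strand: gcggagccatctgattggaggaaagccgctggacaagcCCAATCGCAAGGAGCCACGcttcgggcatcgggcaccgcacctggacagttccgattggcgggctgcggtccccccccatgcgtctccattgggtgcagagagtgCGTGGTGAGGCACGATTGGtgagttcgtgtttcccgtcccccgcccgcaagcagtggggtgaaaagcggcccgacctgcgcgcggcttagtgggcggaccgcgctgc
Calr, chr8:84847059-84847109, - strand: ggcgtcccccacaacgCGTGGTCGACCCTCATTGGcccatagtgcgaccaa
Canx, chr11:50325784-50325834, - strand: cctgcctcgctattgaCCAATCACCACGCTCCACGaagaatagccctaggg
Pdia6, chr12:17266475-17266525, + strand: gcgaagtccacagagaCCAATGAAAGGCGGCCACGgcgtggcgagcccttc
In Hspa5 the element lies 65 to 47 bases before the start site. Hsp90b1 holds 2 copies, 1 at 212 to 194 bases and 1 on the other strand at 107 to 89. In Calr it lies 162 to 144 bases before the start, in Canx 145 to 127 and in Pdia6 98 to 80. Pdia3 and Pdia4 held CCAAT but not the whole element in this window. A match is a description of these letters and not a measured binding site.

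Hspa5, which encodes BiP, stood at 196, 234, 210, 234 and 202 CPM in the 5 Control SS mice and at 260, 272, 241, 257 and 238 CPM in the 5 Control OS mice. Every Control OS mouse was above every Control SS mouse. The log2 fold change was 0.235 (SE 0.06), or 17.7%, with an adjusted p of 0.252 by edgeR. In dnFGFR mice, Hspa5 stood at 241, 222, 273, 220 and 207 CPM under SS housing and at 297, 313, 283, 246 and 233 CPM under OS housing. Here the groups overlapped, since dnFGFR SS replicate 3 exceeded 2 of the OS mice. The log2 fold change was 0.24 (SE 0.10), with an adjusted p of 0.726 by edgeR. Hspa5 is in the gene list that the study published from dnFGFR mice, so its direction there is not independent evidence, whereas the control mice did not enter that comparison. On those sacrifice dates with mice of both housings, which left 2 SS and 5 OS control mice, the log2 fold change in control mice was 0.19.

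Hsp90b1 encodes GRP94, the Hsp90 of the ER. It stood at 293, 306, 294, 310 and 287 CPM in Control SS mice and at 308, 349, 359, 326 and 298 CPM in Control OS mice, with overlap at the low end of the OS group. The log2 fold change was 0.14 (SE 0.06, adjusted p = 0.5996 by edgeR). In dnFGFR SS mice it was at 314, 283, 319, 287 and 292 CPM and in dnFGFR OS mice at 375, 343, 341, 318 and 363 CPM, where only replicate 4 of the OS group fell within the SS range. The log2 fold change was 0.22 (SE 0.07, adjusted p = 0.726 by edgeR), and 0.14 once a trend with GC content and transcript length was removed. The other 6 ER chaperones ranged from 0.04 for Hspa13, a small Hsp70-like protein, to 0.17 for Pdia4 in control mice, and from 0.05 for Pdia6 to 0.20 for Pdia4 in dnFGFR mice.

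Markers of choroid plexus, a secretory epithelium, were all 5 above 0 in control mice, with a median log2 fold change of 1.35. None passed the test (smallest adjusted p = 0.376 by edgeR), and the groups overlapped, as their sum ranged from 44.1 to 1075 CPM in Control SS mice and from 61.0 to 1935 CPM in Control OS mice. In dnFGFR mice 4 of 5 were above 0, with a median of 0.22, and the sums ranged from 42.5 to 1593 CPM under SS and from 42.3 to 2150 CPM under OS housing. Within both control groups, the highest Hspa5 values were in mice with large sums of these markers. In Control SS mice it was at 234 CPM in both mice with the largest sums, 404 and 1075 CPM, and at 196 to 210 CPM in the other 3. In Control OS mice the lowest sum, 61.0 CPM, went with the lowest Hspa5, 238 CPM, and the highest sum, 1935 CPM, with the highest Hspa5, 272 CPM. That lowest Control OS value was still above all Control SS mice. In dnFGFR SS mice the largest sum, 1593 CPM, went with the highest Hspa5, 273 CPM, but the next largest, 753 CPM, went with the lowest, 207 CPM. In dnFGFR OS mice the highest Hspa5, 313 CPM, went with the lowest sum of the 20 mice, 42.3 CPM. Other marker lists differed too: the 5 striatal genes were all below 0 in both genotypes, with medians of -0.09 and -0.24, and the 5 astrocyte genes were all above 0 in dnFGFR mice, with a median of 0.16. Of the 6 preoptic and hypothalamic markers, 4 were above 0 in control mice, with a median of 0.06. In dnFGFR mice 5 of these 6 were below 0, with a median of -0.28, and none passed the test in either genotype. The part of these marker lists in the chaperone values was not tested.

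Among the cochaperones, Ptges3 was the gene whose housing groups did not overlap. It encodes p23, which caps the closed Hsp90 clamp and helps hold steroid receptors ready for hormone, and which also has a prostaglandin E synthase activity. In Control SS mice it was at 87.02, 88.9, 90.3, 85.6 and 88.3 CPM and in Control OS mice at 93.1, 99.0, 101.5, 97.1 and 94.5 CPM. In dnFGFR SS mice it was at 83.0, 86.5, 86.9, 87.5 and 78.9 CPM and in dnFGFR OS mice at 104.4, 103.3, 103.1, 97.0 and 94.5 CPM. All 10 OS mice, at 93.1 to 104.4 CPM, were above all 10 SS mice, at 78.9 to 90.3 CPM. Ptges3 and Hspa5 were the 2 genes of the 50 whose housing groups did not overlap in control mice (0.853% of all genes did so in this direction), and Ptges3 was the only 1 in dnFGFR mice (0.726%). Over both genotypes together, 3 of 17445 genes (0.0172%) had every OS mouse above every SS mouse, Ptges3 among them.

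The log2 fold change of Ptges3 was 0.14 (SE 0.04, adjusted p = 0.411 by edgeR) in control mice and 0.25 (SE 0.06, adjusted p = 0.726) in dnFGFR mice, that is 10.2% and 18.9%. Its housing difference averaged over both genotypes, a comparison added after these values had been seen, was 0.20 (SE 0.03), with an adjusted p of 0.0400 by edgeR, the 3rd smallest p-value of 17445 genes, of which 8 passed (0.0459%). Next among the 50 came Hsp90b1 and Hspa5, with log2 fold changes of 0.18 and 0.24 and an adjusted p of 0.142 each. In this comparison 13 of the 50 genes were higher in OS mice at an unadjusted p under 0.05 and 0 lower (5.47% and 5.74% of all genes), 6 of the 13 being ER chaperones and 3 TRiC subunits. The Ptges3 call was lost when a trend with GC content and transcript length was removed (0.13, adjusted p = 0.193). Within dates that held both housings the log2 fold change was 0.20, with an adjusted p of 0.999 by edgeR. That fit left out the mice from dates with only 1 housing, most of them SS mice. Ptges3 transcripts have a GC content of 43.25%, and across genes the housing difference fell with GC content in dnFGFR mice (Spearman's rho = -0.498 over 16565 genes, which share the same libraries) and less in control mice (rho = -0.0925). The call was also lost without Control SS replicate 4 (adjusted p = 0.145) or 5 (0.116), Control OS replicate 3 (0.124), dnFGFR SS replicate 2 (0.1004) or 5 (0.115), or dnFGFR OS replicate 1 (0.107) or 3 (0.106), with log2 fold changes from 0.19 to 0.20. Ptges3 too is in the gene list that the study published from dnFGFR mice, so its direction there is not independent evidence.

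**Figure D3:**
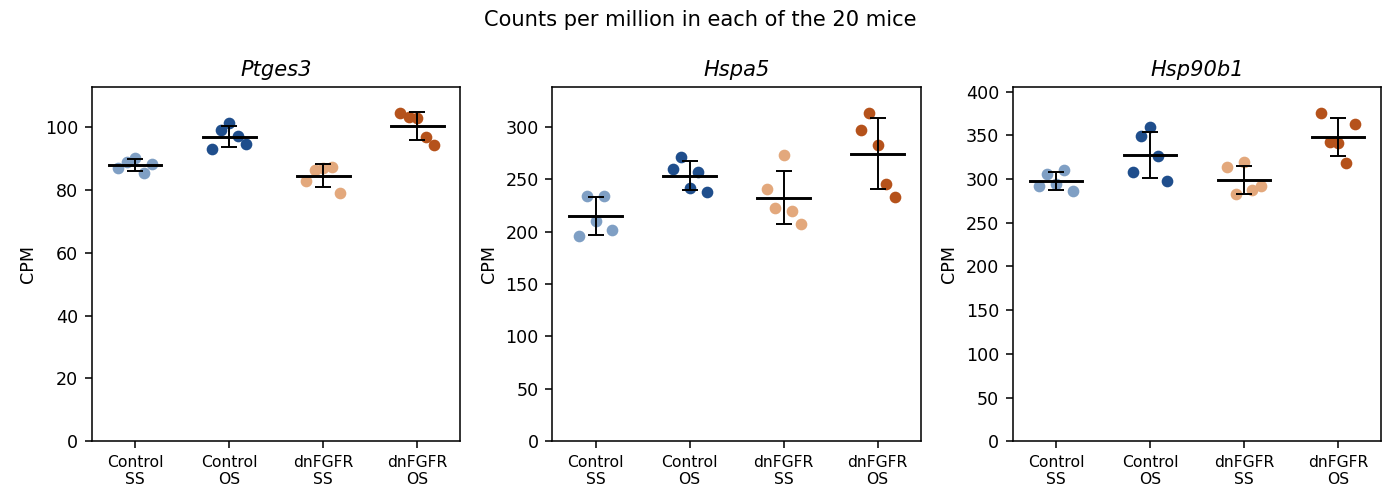
CPM of Ptges3, Hspa5 and Hsp90b1 in each of the 20 mice, with the mean (line) and SD (bar) of the 5 mice in each group; axes start at 0. The 10 OS mice of Ptges3, at 93.1 to 104.4 CPM, all lie above the 10 SS mice, at 78.9 to 90.3 CPM, and Hspa5 separates by housing in control mice.

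The 250 bases before the start of Ptges3 are shown beside those of the ER chaperones. They hold neither the ER stress element, nor CCAAT, nor the heat shock spelling described below, and therefore carry no capitals. A link between these letters and the housing values was not tested.
Ptges3, chr10:128058732-128058981, + strand, GRCm38.p6: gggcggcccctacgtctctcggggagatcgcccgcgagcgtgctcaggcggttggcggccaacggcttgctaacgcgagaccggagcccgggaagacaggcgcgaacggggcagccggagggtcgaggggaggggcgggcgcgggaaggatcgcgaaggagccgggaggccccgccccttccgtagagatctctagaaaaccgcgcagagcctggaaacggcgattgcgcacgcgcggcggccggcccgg
The other 5 cochaperones gave no such separation. St13 and Stip1 link Hsp70 to Hsp90, Ahsa1 starts the ATPase of Hsp90, Cdc37 brings kinases to it and Fkbp4 brings steroid receptors. Their log2 fold changes ranged from -0.02 for Cdc37 to 0.09 for Ahsa1 in control mice and from -0.10 for Fkbp4 to 0.03 for St13 in dnFGFR mice.

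The heat-inducible chaperones gave 7 of 7 fold changes above 0 in control mice, with a median of 0.11, and 3 of 7 in dnFGFR mice, with a median of -0.02. With 1 mouse left out, the control median ranged from 0.053 (without Control SS replicate 4) to 0.18 (without Control SS replicate 1), and the dnFGFR median from -0.18 (without dnFGFR OS replicate 2) to 0.069 (without dnFGFR OS replicate 1). Dnajb1, the J-domain partner of inducible Hsp70, had the smallest p-value of the class in control mice. It was at 50.7, 52.2, 43.6, 46.01 and 45.8 CPM in Control SS mice and at 48.1, 51.6, 52.1, 59.2 and 54.1 CPM in Control OS mice, so that the groups overlapped. The log2 fold change was 0.15 (SE 0.07, adjusted p = 0.638 by edgeR). In dnFGFR mice the class member with the smallest p-value was Hsp90aa1, at 1103, 905, 960, 1212 and 969 CPM under SS and 1124, 1131, 1218, 1047 and 1334 CPM under OS housing. Its log2 fold change there was 0.19 (SE 0.10, adjusted p = 0.729 by edgeR), with overlap.

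Hspa1a and Hspa1b, the archetypal heat shock Hsp70 genes, are neighbours on chromosome 17 and nearly identical in sequence. The counting of reads that match both was not given in the sources used here, so their separate levels are uncertain, and Hspa1a took 51.4% to 58.9% of the reads of the pair in every mouse. Their promoters were alike in 247 of 250 bases. The stretches below, for this pair and for the small heat shock protein Hspb1, show the heat shock spelling GAANNTTC or TTCNNGAA in capitals. The spelling is read alike on both strands and joins 2 of the GAA units that heat shock factors bind.
Hspa1a, chr17:34972237-34972276, - strand, GRCm38.p6: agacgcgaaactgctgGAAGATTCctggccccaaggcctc
Hspa1b, chr17:34959319-34959358, - strand, GRCm38.p6: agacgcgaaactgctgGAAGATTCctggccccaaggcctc
Hspb1, chr5:135887786-135887845, + strand, GRCm38.p6: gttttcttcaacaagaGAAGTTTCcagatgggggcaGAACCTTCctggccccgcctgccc
The 2 Hsp70 copies hold it 104 to 97 bases before the start, and Hspb1 holds it at 117 to 110 and at 97 to 90 bases. It was in 5 of the 6 matched heat-inducible genes, though not in every promoter of Dnaja1, and in both matched mitochondrial chaperone genes. It was also in 2 TRiC subunits and 2 cochaperones, in 0 of the 7 ER chaperones and in 12.8% of all promoters. A longer form that joins 3 of these units was in 0 of the 6 heat-inducible genes. Among the matched members, only the mitochondrial Hspd1 and Hspe1 held this longer form, which was in 0.466% of all promoters.

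Hspa1a stood at 15.3, 11.5, 13.3, 10.3 and 14.7 CPM in Control SS mice and at 14.6, 15.1, 12.04, 14.4 and 15.0 CPM in Control OS mice, which overlapped. In dnFGFR SS mice it was at 16.7, 12.9, 18.8, 20.8 and 13.3 CPM and in dnFGFR OS mice at 10.9, 25.6, 13.8, 16.1 and 13.3 CPM. The value of 25.6 CPM belongs to dnFGFR OS replicate 2, in which Hspa1b was also highest, at 24.2 CPM. Hspa1b otherwise lay at 12.8, 8.65, 11.3, 7.21 and 11.55 CPM in Control SS, 10.6, 11.9, 8.39, 11.3 and 13.2 CPM in Control OS and 13.1, 11.2, 17.1, 18.1 and 10.1 CPM in dnFGFR SS mice, and at 9.74 to 13.4 CPM in the other 4 dnFGFR OS mice. All housing groups of the pair overlapped. The log2 fold changes with housing were 0.13 (SE 0.11, adjusted p = 0.858 by edgeR) in control and -0.04 (SE 0.21, adjusted p = 0.969) in dnFGFR mice for Hspa1a, and 0.11 (SE 0.15, adjusted p = 0.929) and 0.03 (SE 0.24, adjusted p = 0.980) for Hspa1b. Without dnFGFR OS replicate 2 the dnFGFR values were -0.28 for Hspa1a and -0.25 for Hspa1b. In control mice both genes stayed above 0 with any 1 mouse left out, from 0.053 to 0.19 for Hspa1a and from 0.0022 to 0.20 for Hspa1b.

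**Figure D4:**
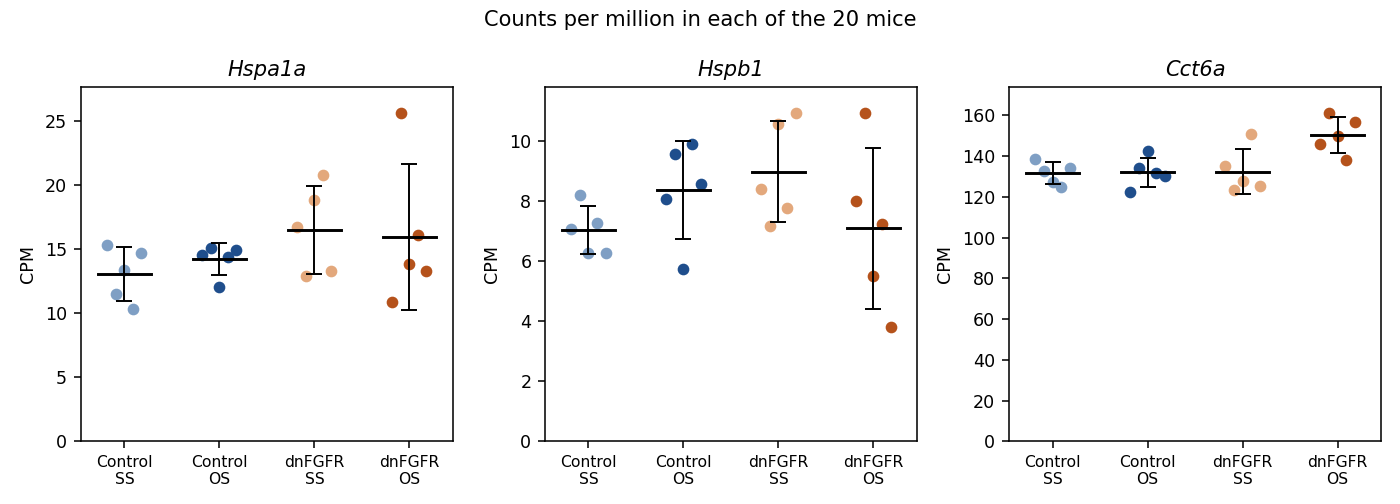
CPM of the heat-inducible Hspa1a and Hspb1 and the TRiC subunit Cct6a in each of the 20 mice, with the mean (line) and SD (bar) of the 5 mice in each group; axes start at 0. One dnFGFR OS mouse reaches 25.6 CPM of Hspa1a, Hspb1 spans 3.79 to 10.9 CPM in that group, and Cct6a is highest in dnFGFR OS mice.

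The other cytosolic heat shock proteins had class medians of 0.02 in both genotypes. Hspa2, an Hsp70 gene known from spermatogenesis that is also expressed in brain, was at 23.1, 26.6, 27.4, 25.3 and 27.4 CPM in Control SS mice and at 23.9, 29.5, 28.9, 33.8 and 31.1 CPM in Control OS mice. In 4 of the OS mice the level exceeded that of all SS mice, and the log2 fold change was 0.18 (SE 0.09, adjusted p = 0.693 by edgeR). In dnFGFR mice the smallest p-value of the class was that of Hspa8, at 0.13 on the log2 scale (SE 0.08, adjusted p = 0.783 by edgeR), beside 0.11 in control mice. Its CPM was 1081, 946, 1058, 1139 and 989 in dnFGFR SS and 1116, 1294, 1136, 1041 and 1095 in dnFGFR OS mice, which overlapped. The constitutive Hsp90ab1, the most abundant gene of the 50, had log2 fold changes of -0.01 (95% interval -0.12 to 0.11) and 0.02 (-0.17 to 0.21).

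TRiC is built from 8 subunits, all of them measured. In control mice 7 of 8 were above 0, between -0.04 for Cct7 and 0.08 for Cct4, and none had an unadjusted p under 0.05. In dnFGFR mice all 8 were above 0, between 0.03 for Cct3 and 0.21 for Tcp1, with a median of 0.12. Tcp1 was at 197, 201, 187, 219 and 199 CPM in dnFGFR SS mice and at 235, 250, 222, 197 and 257 CPM in dnFGFR OS mice. All OS mice but replicate 4 exceeded the SS range, and the log2 fold change was 0.21 (SE 0.08, adjusted p = 0.726 by edgeR). Cct6a was at 135, 123, 128, 151 and 125 CPM in dnFGFR SS mice and at 146, 161, 150, 138 and 157 CPM in dnFGFR OS mice, which is 0.19 on the log2 scale (SE 0.07, adjusted p = 0.726 by edgeR). In control mice Cct6a stood at 139, 133, 127, 125 and 134 CPM under SS and at 122, 134, 142, 132 and 130 CPM under OS housing, with a log2 fold change of 0.0051 (SE 0.05). Cct4, with the smallest p-value of the class in control mice, was at 77.3, 83.4, 81.4, 84.0 and 78.2 CPM under SS and 79.5, 85.2, 89.2, 87.1 and 85.9 CPM under OS housing, which overlapped, and differed by 0.08 on the log2 scale (SE 0.05, adjusted p = 0.787 by edgeR). In control mice the TRiC median moved from 0.03 to -0.0049 once the GC and length trend was removed with a replicate block.

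Prefoldin, which hands actin and tubulin to TRiC, had genes in both directions in dnFGFR mice. In control mice all 6 subunits were above 0, with a median of 0.05, and in dnFGFR mice 3 were above and 3 below, with a median of -0.05. With 1 mouse left out, the control median ranged from 0.012 (without Control OS replicate 5) to 0.10 (without Control OS replicate 3), and the dnFGFR median from -0.18 (without dnFGFR OS replicate 2) to 0.010 (without dnFGFR OS replicate 5). Vbp1, the subunit named for binding the VHL protein, was at 50.5, 65.1, 55.4, 54.0 and 54.0 CPM in Control SS and 60.8, 61.1, 63.6, 64.9 and 57.1 CPM in Control OS mice, and at 61.4, 59.2, 63.5, 57.5 and 59.7 CPM in dnFGFR SS and 71.8, 67.1, 62.1, 60.4 and 66.1 CPM in dnFGFR OS mice. The groups overlapped in both genotypes. Its log2 fold changes were 0.14 (SE 0.07, adjusted p = 0.696 by edgeR) and 0.12 (SE 0.07, adjusted p = 0.762). Pfdn1, Pfdn2 and Pfdn6 were at -0.29, -0.15 and -0.23 in dnFGFR mice, none with an unadjusted p under 0.05. The substrates of this route, in a list of 14 tubulin, actin and tubulin cofactor genes, had medians of -0.05 in control and -0.01 in dnFGFR mice, with 2 and 7 genes above 0.

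The mitochondrial chaperones had class medians of 0.0007 in control and 0.0097 in dnFGFR mice. Hspd1 and Hspe1 encode the chaperonin and its lid in the mitochondrial matrix and share a bidirectional promoter, and Hspa9 encodes mitochondrial Hsp70. Hspa9 and Hspd1 had log2 fold changes of 0.0007 and -0.0017 in control and 0.0097 and -0.0032 in dnFGFR mice. Hspe1 was at 45.8, 49.8, 44.1, 40.2 and 43.2 CPM in Control SS and 44.6, 53.0, 44.2, 45.4 and 46.3 CPM in Control OS mice, and at 39.9, 41.7, 47.4, 35.6 and 46.6 CPM in dnFGFR SS and 55.1, 56.0, 40.4, 43.1 and 33.7 CPM in dnFGFR OS mice. The groups overlapped in both genotypes, with log2 fold changes of 0.07 (SE 0.07, adjusted p = 0.900 by edgeR) and 0.11 (SE 0.14, adjusted p = 0.866). The 95% interval of Hspa9 in control mice, -0.09 to 0.09, gives the range of differences these mice allow.

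Of the cyclophilins, Ppia, Ppib, Ppid and Ppif lay between -0.05 and 0.08 in control mice and between -0.10 and 0.01 in dnFGFR mice. Ppib, the cyclophilin of the ER, is not in the ER chaperone class and was at 0.07 (SE 0.06) in control and -0.10 (SE 0.14) in dnFGFR mice. Ppic rested on few reads and was at 0.717, 1.52, 0.556, 1.12 and 0.840 CPM in Control SS and 0.693, 0.483, 0.484, 0.822 and 0.683 CPM in Control OS mice. Its log2 fold changes were -0.59 (SE 0.31, adjusted p = 0.737 by edgeR) and 0.33 (SE 0.30, adjusted p = 0.837).

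Read mouse by mouse, several classes stood high or low together in a few libraries. Relative to each gene's mean over the 20 mice, dnFGFR OS replicate 2 stood higher by 0.46 on the log2 scale for heat-inducible chaperones, 0.38 for prefoldin, 0.26 for cyclophilins, 0.25 for TRiC and 0.10 for ER chaperones, with 44 of the 50 genes above their mean. In dnFGFR OS replicate 5, prefoldin was at -0.35 and cyclophilins at -0.34, while TRiC was at 0.08. This is the library in which fewer genes were detected. The ER chaperones were below their mean in every Control SS mouse, from -0.15 to -0.01, and above it in all Control OS mice but replicate 5, at -0.07. They were above it in every dnFGFR OS mouse, from 0.01 to 0.23, and below it in all dnFGFR SS mice but replicate 3, at 0.06.

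**Figure D5:**
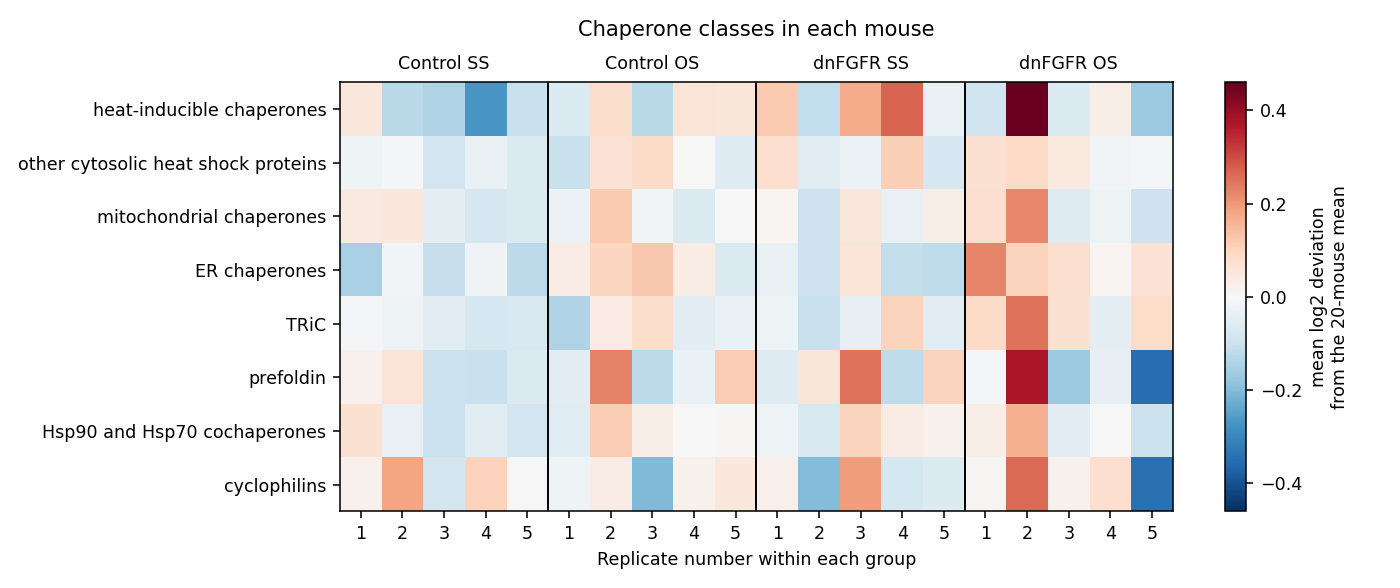
Mean log2 deviation of each class from its 20-mouse mean, 1 column for each mouse and 1 row for each class, in red where higher and blue where lower. The darkest cell is dnFGFR OS replicate 2 for heat-inducible chaperones at 0.46, and the ER chaperone row is mostly blue under SS and red under OS housing.

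The second question was whether housing acted differently in the 2 genotypes. No gene of the 50 passed the interaction test, and 0 of 17445 genes did by edgeR (0.00%) or by DESeq2, with 595 at an unadjusted p under 0.05 by edgeR (1.52% of all genes positive). Ppic (0.92, SE 0.42) and Cct6a (0.18, SE 0.09) had an unadjusted p under 0.05, with an adjusted p of 0.963 each by edgeR. With 1 mouse left out this count ranged from 0, without dnFGFR SS replicate 5, to 6, without dnFGFR OS replicate 2. Tcp1 was next among those with a larger OS difference in dnFGFR mice (0.16, SE 0.09). In the other direction came Hspb1, a small heat shock protein of glia and vessels (-0.59, SE 0.29), Pfdn2 (-0.26, SE 0.15) and Dnajb1 (-0.23, SE 0.14), all with an adjusted p of 0.963. For Ptges3 the interaction was 0.11 (95% interval -0.03 to 0.25) and for Hspa5 0.0043 (SE 0.12), and neither passed the test.

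The third question was the difference between genotypes within each housing. By edgeR, 0 of the 50 genes passed under SS housing, against 34 of 16992 (0.200%), and under OS housing 0 passed, against 9 of 16941 (0.0531%). Under SS housing, 6 of the 50 were higher in dnFGFR mice at an unadjusted p under 0.05 and 0 lower (4.12% and 4.51% of all genes), and 4 of the 6 were heat-inducible. The 6 became 2 without Control SS replicate 4 or dnFGFR SS replicate 3 and 3 without dnFGFR SS replicate 4. Hspa2 stood first, at 32.6, 31.7, 33.8, 32.5 and 26.7 CPM in dnFGFR SS mice beside the Control SS values above. All but replicate 5 exceeded every Control SS mouse, and the log2 fold change was 0.27 (SE 0.07, adjusted p = 0.227 by edgeR). Without dnFGFR SS replicate 5 it was 0.33, with an adjusted p of 0.0717, and DESeq2 called it in all mice (0.27, adjusted p = 0.0674). Hspb1 was at 8.41, 7.17, 10.6, 7.79 and 10.9 CPM in dnFGFR SS mice and at 7.08, 8.21, 6.28, 7.26 and 6.29 CPM in Control SS mice, which is 0.35 on the log2 scale (SE 0.13, adjusted p = 0.437 by edgeR). Hspa1b and Hspa1a were at 0.43 (SE 0.18, adjusted p = 0.500) and 0.34 (SE 0.14, adjusted p = 0.514). Lower in dnFGFR SS mice, with no unadjusted p under 0.05, were Ppic at -0.55 (SE 0.33), Ptges3 at -0.06 (SE 0.04) and Hspe1 at -0.08 (SE 0.08).

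Under OS housing, Cct6a was the only gene of the 50 with an unadjusted p under 0.05 between genotypes (3.10% of all genes were higher and 3.93% lower at that level), at 0.19 (SE 0.07, adjusted p = 0.646 by edgeR). That count of 1 became 6 without dnFGFR OS replicate 2, 4 without dnFGFR OS replicate 4, 3 without Control OS replicate 3 and 2 without Control OS replicate 2 or 4. Hsp90aa1 followed at 0.19 (SE 0.09, adjusted p = 0.709) and Cct8 at 0.13 (SE 0.06, adjusted p = 0.723). Pfdn1 was at -0.28 (SE 0.18), Hspb8 at -0.20 (SE 0.14) and Hspb1 at -0.24 (SE 0.24). The genotype differences share their mice with the housing differences and are therefore not a separate observation of the same values.

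Beyond the 50 genes, 128 further genes of the pathway were listed by function, and 0 of them passed the adjusted threshold in either housing comparison. In control mice 81 of the 126 tested were above 0, and in dnFGFR mice 70 of 127. The list of 29 genes of ER folding and the unfolded protein response lay above 0 in 22 genes with a median of 0.05 in control mice, and in 20 genes with a median of 0.09 in dnFGFR mice. Its smallest p-values in control mice were those of Herpud1, part of ER-associated degradation (0.19, SE 0.06), and Clgn, a calnexin homologue of the testis (-0.24, SE 0.08). In dnFGFR mice they were those of Selenof, a selenoprotein of the ER (0.19, SE 0.07), and Mesd, the chaperone of LDL receptor relatives (0.16, SE 0.07); both are in the list the study published from these mice. Among 21 further J-domain proteins, Dnajc3, the BiP partner also called p58IPK, was at 0.20 (SE 0.07) and 0.26 (SE 0.11), Dnajb9, another ER partner of BiP, was at 0.22 (SE 0.07) in dnFGFR mice, and Dnajb14 was at -0.41 (SE 0.14) in control mice.

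Heat shock factors and other cochaperones, a list of 20, lay above 0 in 17 genes in control mice and in 9 in dnFGFR mice. The smallest p-values were those of Chordc1 (0.19, SE 0.07) and Bag3 (0.27, SE 0.10) in control mice, both cochaperones, and of the factors Hsf2 (0.28, SE 0.09) and Hsf1 (-0.22, SE 0.10) in dnFGFR mice. Among 26 further prolyl isomerases these were Ppil6 (0.48, SE 0.19) and Fkbp5, a glucocorticoid-induced cochaperone of steroid receptors (0.21, SE 0.09), in control mice, and Ppwd1 (0.26, SE 0.12) and Fkbp9 (0.15, SE 0.09) in dnFGFR mice. Other heat shock proteins gave Hspa12b at -0.31 (SE 0.10) and Cryab at 0.14 (SE 0.09) in control mice, and Hspb2 at -0.89 (SE 0.55) and Hyou1, an ER Hsp110, at 0.07 (SE 0.07) in dnFGFR mice. Of the prefoldin-like and R2TP genes, Ruvbl2 was at 0.11 (SE 0.09) and Rpap3 at -0.07 (SE 0.06) in control mice, and Uxt at 0.21 (SE 0.17) and Rpap3 at 0.09 (SE 0.07) in dnFGFR mice. Tbcd was at -0.10 (SE 0.05) and Tuba1a at -0.08 (SE 0.05) in control mice, and Actb at 0.21 (SE 0.10) and Tubb3 at -0.11 (SE 0.10) in dnFGFR mice.

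The ER stress element was also looked for outside the 50 genes, a reading chosen after their values were seen. It was in the promoters of 30 further genes, of which 16 were tested in each genotype. In control mice 6 of these 16 were above 0 (50.9% of all genes), with a median of -0.04. In dnFGFR mice 10 were above 0 (50.9% of all genes), with a median of 0.05. Among the 16, Dnajc3 (0.20 in control and 0.26 in dnFGFR mice) and Creld2 (0.16 and 0.12) were above 0 in both genotypes. Derl3 (-0.15 and -0.56) and Syvn1 (-0.04 and -0.10) were below 0 in both.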

How the data were processed

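RNA of the POA was sequenced from 20 male mice. According to the study's methods and the submitters' processing notes, the authors aligned paired reads with HISAT2 to GRCm38, counted them per gene with Rsubread, and deposited raw counts. The strand and multi-mapping settings were not given in the sources used here. A further 20 columns of the table match no sample of the labels and were not used. The labels assigned each mouse to its group. edgeR 4.0.16 (R 4.3.3, limma 3.58.1) was run on the deposited counts, with filterByExpr at a minimum count of 10, TMM scaling and the quasi-likelihood test, separately on the 10 mice of each pair of groups, and on all 20 for the interaction and for housing over both genotypes, which was added after values had been seen. Benjamini-Hochberg adjustment covered all genes tested, at a threshold of 0.1. The scripts were tested on simulated data. With 32353578 to 39871353 counts per mouse, depth limited genes with few reads, such as Ppic. The 50 members and the gene lists were chosen with earlier results of these data known. Full statistics were given for the member with the smallest p in each class and housing comparison, any past the threshold, Ptges3, Hspa5, Hspa1a and Hspa1b, the 3 smallest p in each direction for the interaction and genotype comparisons, and the 2 smallest p per further list. Of the 50, 18 overlap another counted gene, Hspa5 (Rabepk) and Tcp1 among them, so that reads of the overlap could belong to either. Promoters are from RefSeq, GRCm38.p6, and 40 of the 50 members were matched. Alternatives were DESeq2 1.42.0, its size factors (the authors' notes name DESeq2 1.36.0), no filter, 1 fit over all 4 groups, a replicate block, removal of a GC and length trend, each mouse left out, and dates with both housings.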

Additional observations from a re-analysis of the deposited data

Results flagged for a closer look

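Among the named genes, 4 of 80 groups of 5 mice held a value far from the others by Dixon's test, and chance alone gives about 1 in 20. Hsp90aa1 stood at 1211 CPM in Control OS replicate 3, against 955 to 994 CPM in the other 4 mice of the group. Hspa1a was low in the same mouse, at 12.04 CPM against 14.4 to 15.1 CPM. Hspa1b stood at 24.2 CPM in dnFGFR OS replicate 2, against 9.74 to 13.4 CPM. Hspe1 stood at 53.0 CPM in Control OS replicate 2, against 44.2 to 46.3 CPM.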

How the results depend on the processing

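The number of genes past the threshold depended on the tool. In control mice, 21 became 157 with DESeq2 (1 member, Hspa5, adjusted p = 0.0429), 0 with all 4 groups in 1 fit, 43 with the GC and length trend removed, 66 when a replicate block was added to that (1 member, Hspa5, adjusted p = 0.0943) and 1 within dates. In dnFGFR mice DESeq2 gave 5. Between genotypes under SS housing, 34 became 223 with DESeq2 (1 member, Hspa2) and 56 with the trend removed and a replicate block. Under OS housing, 9 became 78 with DESeq2, 45 in 1 fit, 3 with the replicate block and 26 with the trend removed. For housing over both genotypes, 8 became 327 with DESeq2 (3 members, Ptges3, Hspa5 and Hsp90b1), 4 without a filter, 3 with the replicate block and 0 with the trend removed, alone or with the block, or within dates, each with 0 members. Leaving out 1 mouse gave 0 to 32 genes in control mice, 21 to 70 (0 to 1 members) and 3 to 16 between genotypes under SS and OS housing, and 0 to 398 (0 to 4 members) over both genotypes, with 398 without dnFGFR OS replicate 2 and 201 without replicate 4. In dnFGFR mice the members at an unadjusted p under 0.05, 6 in all, were 3 with the replicate block. The replicate numbers do not pair the mice: correlations of the deviations of same-numbered mice ranged from -0.235 to 0.258.

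Directions near 0 turned, also for the class medians of heat-inducible chaperones and prefoldin in dnFGFR mice when 1 mouse was left out. Within dates, Hspe1 was at -0.012 in control mice, and Hspa1a at 0.0034 and Ppic at -0.018 in dnFGFR mice. In dnFGFR mice Hspa1b was at -0.017 with the replicate block, and Hspa1a at 0.079 with the trend removed and 0.061 with the block added. The interaction of Hspa5 was at -0.0065 and -0.012 under those 2 settings and that of Hspa1b at 0.029 and 0.016. With 1 mouse left out, the dnFGFR housing difference ranged from -0.28 to 0.069 for Hspa1a and from -0.25 to 0.14 for Hspa1b, the interaction from -0.033 to 0.082 for Hspa5 and from -0.34 to 0.043 for Hspa1b, the genotype difference of Hspa1a under OS housing from -0.068 to 0.28, and housing over both genotypes from -0.072 to 0.10 for Hspa1a and from -0.067 to 0.13 for Hspa1b. The cause was not tested. Ptges3 stayed above 0 over both genotypes in all 27 alternatives. Over both genotypes all 8 ER chaperones were above 0 in all 27, and at least 7 of 8 in each of the 18 alternatives within control and within dnFGFR mice.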
